A study of Mus musculus with 2 samples.

Results

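The genes described here encode splicing factors and heterogeneous nuclear ribonucleoproteins (hnRNPs) of the mouse. They were chosen by name alone, as all non-control array probes whose gene name in the scanner files begins with Sf3, Sfrs or Srsf, Hnrp or Hnrnp, Snrp, Prpf, Lsm and a digit, U2af, or Rbm and a digit. The rule gave 242 probes for 121 genes, of 41174 probes and 19756 named genes in all. Of the 121, 115 were well above background on either array (114 in granulocytes, 115 in monocytes and 114 in both) and are called members below. The remaining 6, Rbm11, Rbm20, Rbm31y, Rbm41, Hnrnpul2 and Esrp1 (printed as Rbm35a on the array), were not well above background on either array and are given no value. Over all named genes, 15610 were well above background on either array.

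Both cell types, granulocytes and monocytes, came from sorted bone marrow of male mice, wild type and of the C57BL/6 strain, and the RNA of each was measured on 1 one-colour (Cy3) Agilent array, 2 arrays in all. From each sample 0.5 µg of total RNA had been amplified in a linear reaction driven by T7. The sources used here do not give the ages and number of the mice or the markers and gates of the sort. With 1 array per cell type the spread between animals is unknown and no difference was tested, so every value below describes these 2 arrays and their number limits the precision.

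In this text a level is the log2 signal of a probe minus the 75th percentile of its array, and a difference is the granulocyte level minus the monocyte level, so that -1 on this scale is 2-fold lower in granulocytes. Signal was well above background for 26269 probes (63.9%) in granulocytes and 28055 (68.2%) in monocytes, and for 217 (90.0%) and 221 (91.3%) of the members' probes. The labels were checked with markers. Of 13 neutrophil markers above background on either array all 13 were higher in granulocytes by 2-fold or more (median difference 3.45). All 12 monocyte markers were at least 2-fold lower (median -6.59). Before scaling, the neutrophil markers summed to 1530400 in granulocytes and 660940 in monocytes, and the monocyte markers to 8349.6 and 489050. Neutrophil markers were thus bright on the monocyte array too, such as S100a9 at a level of 8.70 there. The part of such RNA in the members' differences was not tested. Cebpe, also on the neutrophil list, had 0 probes under that name and was not analysed here. In bulk RNA of this kind, fewer cells of a type and less RNA per cell cannot be told apart.

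Splicing removes introns from precursor mRNA and is carried out by the spliceosome, which is built from small nuclear RNAs, each wrapped in a ring of Sm or LSm proteins, and many further proteins. SR proteins generally promote the use of an exon by binding RNA within it, while hnRNPs coat nascent transcripts and often hold exons back. In the blood lineage these genes are known for the recurrent mutations of SF3B1, U2AF1 and SRSF2 in human myeloid disease, and for the retention of introns as granulocytes mature.

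The sequences measured for the core subunits show which stretch of mRNA each value refers to. The array probes are 60 bases long, and those printed lie in coding sequence and were chosen after their values were seen, for ring subunits and other core proteins that the results turn on. Coordinates are those of the scanner files in the mouse build mm8. A span above 60 bases is given where a probe crosses an exon junction. Snrpf, which encodes an Sm ring subunit, lies on chromosome 10 (minus strand), and its probes at chr10:93017867-93019341 and chr10:93013285-93013843 differed by -3.01 and -3.13 between granulocytes and monocytes. In the first of them capitals mark the start codon.
Snrpf, 5′ probe: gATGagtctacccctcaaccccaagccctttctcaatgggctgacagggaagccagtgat
Snrpf, 3′ probe: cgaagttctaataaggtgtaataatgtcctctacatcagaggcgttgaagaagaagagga
Its partner in the ring Snrpd3 (chr10:74976010-74976069, plus strand; difference -0.38 for this probe) was measured by the following probe among others.
Snrpd3: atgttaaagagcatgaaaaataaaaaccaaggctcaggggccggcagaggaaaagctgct
Lsm2 and Lsm8 encode subunits of the LSm ring of U6 RNA. The 2 probes of Lsm2 (chr17:34590678-34590737 and chr17:34590688-34593168, plus strand; differences -2.14 and -2.07) share the 50 bases in capitals, so they are not independent measurements of the gene, and the probe of Lsm8 (chr6:18801738-18803634, plus strand) differed by 0.29.
Lsm2, first probe: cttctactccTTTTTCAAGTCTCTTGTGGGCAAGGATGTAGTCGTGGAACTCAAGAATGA
Lsm2, other probe: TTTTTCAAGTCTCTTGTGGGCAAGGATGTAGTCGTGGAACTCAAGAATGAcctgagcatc
Lsm8: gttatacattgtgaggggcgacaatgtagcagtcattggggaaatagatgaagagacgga
Sf3b1 (chr1:54956802-54959071, minus strand; difference 0.86) is shown as the largest SF3b subunit.
Sf3b1: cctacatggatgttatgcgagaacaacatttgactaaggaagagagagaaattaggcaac

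Across the 115 members, levels were on balance lower in granulocytes than in monocytes, and the distribution lay below that of all genes. The members' median difference was -0.28 (mean -0.40, quartiles -0.99 and 0.41, range -3.80 to 1.82), beside a median of 0.41 over all 15610 genes. Relative to zero, 67 members were lower and 48 higher in granulocytes, and 86 lay below and 29 above the median of all genes. In the authors' deposited value table, which differs from these values by a constant per array, the members' median was -0.46 and that of all genes 0.22. The gap to the all-gene median ran from -0.90 to -0.68 over every setting tried, while the position of zero moved with the scaling: without scaling every difference shifts by -0.87, and 9 in place of 48 members were above 0.

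By size, 29 of the 115 members (25.2%) were at least 2-fold lower in granulocytes, beside 20.9% of all genes, and 7 (6.09%) were at least 2-fold higher, beside 29.1% of all genes. The other 79 differed by less than 2-fold. At 4-fold, 10 members were lower in granulocytes, where the share over all genes was 10.4%, and 0 were higher, where it was 8.54%. With this scaling the members' shares of lower genes at both sizes lie close to those of all genes and are no result about them. The 2-fold lower share was 56.5% (35.3% of all genes) without scaling, 41.7% (28.4%) on the spike-in controls and 34.8% (23.9%) after quantile normalisation, while the 4-fold lower share was 22.6% (19.3%), 13.9% (15.0%) and 10.4% (11.9%). Of the 2-fold calls among members, 19.4% were in the higher direction (58.2% among all genes). This split was 0% (21.9%) without scaling, 4.76% (47.4%) after quantile normalisation and 2.04% (35.0%) on the spike-in controls.

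**Figure D1:**
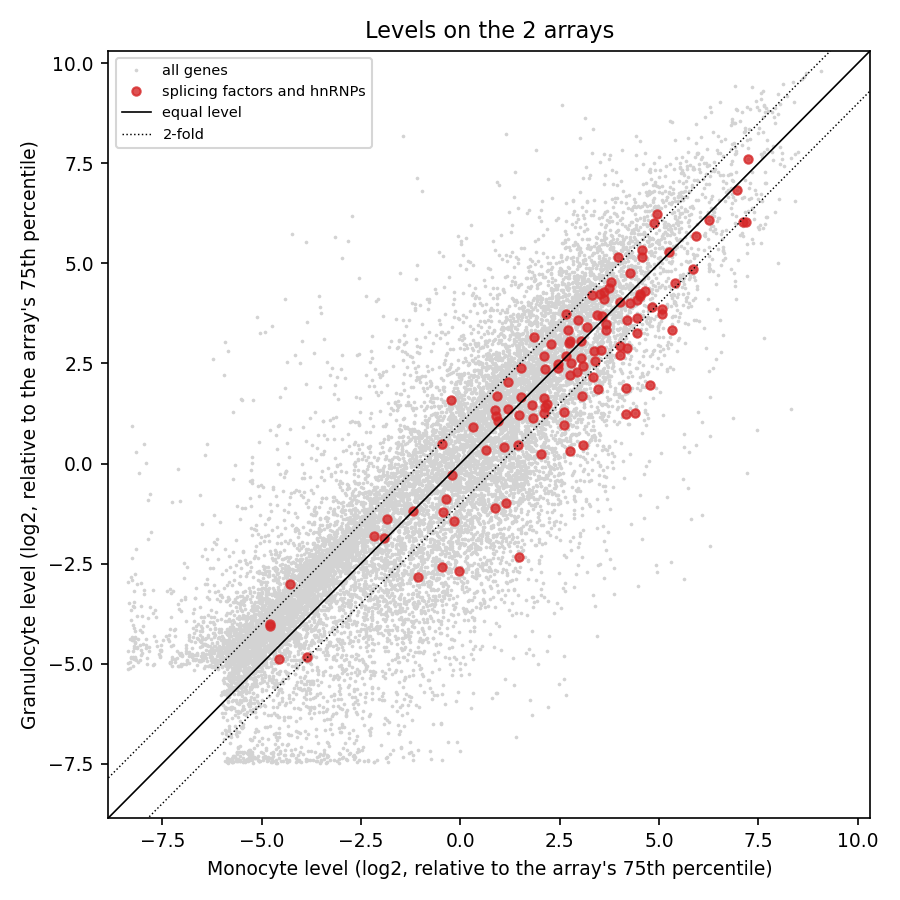
Level of each gene in granulocytes (vertical axis) against monocytes (horizontal axis), both log2 relative to the array's 75th percentile, with 1 grey point per gene above background on either array (15610) and 1 red point per member (115), dotted lines marking 2-fold and genes dim on 1 array drawn at their measured value. More red points lie below the line of equal level (67) than above it (48), and 0 members lie beyond 4-fold on the granulocyte side.

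The families did not share one level of difference. Over all genes, 20.9% were at least 2-fold lower and 29.1% higher. The snRNP and Sm genes had a median difference of -1.62 (13 genes, 9 of them at least 2-fold lower, or 69.2%). The LSm median was -0.71 (13 genes, 4 lower, or 30.8%) and the SR median -0.53 (16 genes, 4 lower, or 25%). For SF3 the median was -0.37 (8 genes, 2 lower, or 25%) and for PRPF -0.27 (13 genes, 2 lower, or 15.4%). For hnRNP it was -0.24 (19 genes, 4 lower, or 21.1%). With this scaling, the lower shares of the SR, SF3, PRPF and hnRNP genes lie near that of all genes and are no result about them. The U2AF genes, with a median of 0.30 (3 genes, 0 at 2-fold), and the RBM genes, with 0.20 (30 genes, 4 lower and 4 higher, 13.3% each), lay above 0 here but not in every setting. Their medians were -0.58 and -0.68 without scaling, -0.20 and -0.30 on the spike-in controls, and 0.16 and -0.03 after quantile normalisation. The SF3 median was 0.04 when a gene's probes were averaged or its dimmest probe was used. The snRNP and Sm median minus that of all genes was -2.03, and it ran from -2.24 to -2.00 over the settings tried.

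**Figure D2:**
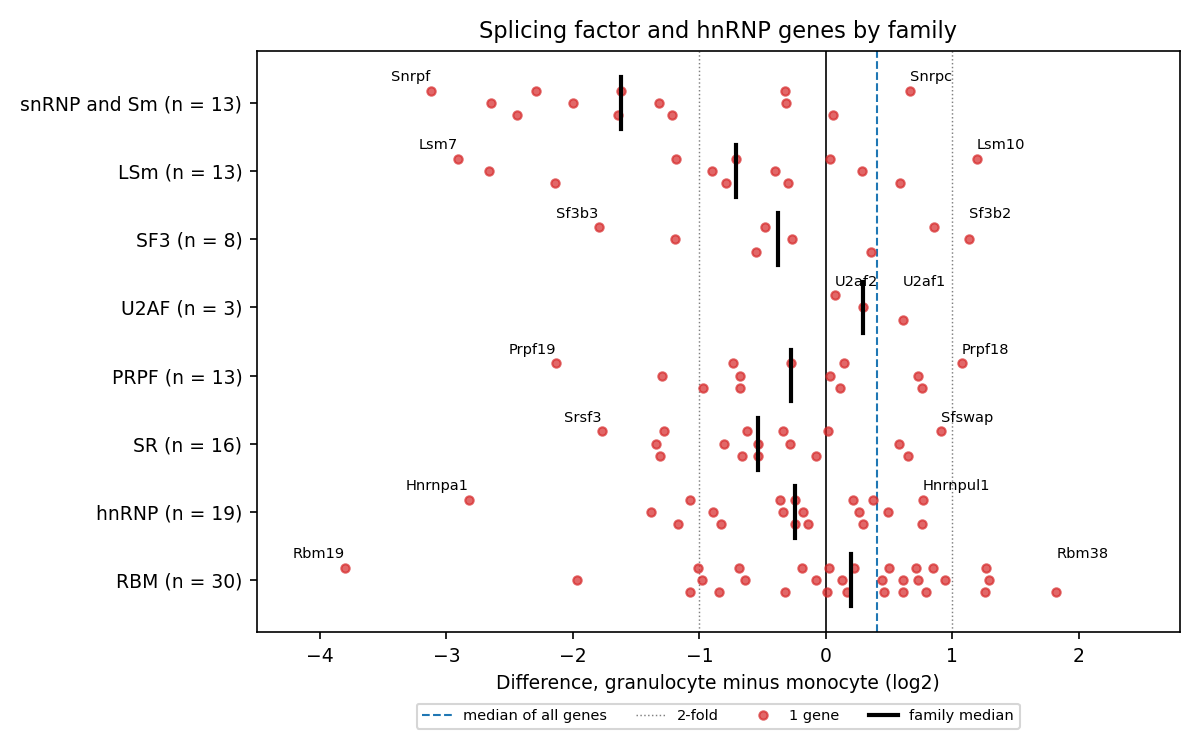
Difference between granulocytes and monocytes (log2, horizontal axis) for every member, 1 point per gene, in rows by family with the family median as a black bar, the median of all genes (0.41) as a dashed line and 2-fold as dotted lines; the lowest and highest gene of each family are named. The snRNP and Sm genes (median -1.62) lie farthest to the left, and the RBM genes spread from -3.80 to 1.82.

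The Sm proteins form the ring around the U1, U2, U4 and U5 RNAs. Of their 7 genes, 6 (85.7%, beside 20.9% of all genes) were at least 2-fold lower in granulocytes. Among these 6, Snrpf alone had more than 1 probe well above background on both arrays. Snrpf stood at a level of 1.27 in granulocytes and 4.39 in monocytes, a difference of -3.13, and its other probe gave -3.01. Snrpd1 stood at 0.46 and 3.10 (difference -2.64), and Snrpg at 3.32 and 5.32 (difference -2.00, 3.99-fold lower and so just inside 4-fold). These are ring subunits with no enzymatic activity of their own. Snrpb, which encodes SmB and is fixed by name among the genes described, stood at 1.85 and 3.47 (difference -1.62).

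The rest of the ring is given to complete it, a choice made after the values were seen. Snrpe stood at 0.97 in granulocytes and 2.62 in monocytes (difference -1.65), and Snrpd2 at 1.29 and 2.61 (-1.32). Snrpd3 was the exception, at 3.35 and 3.66, a difference of -0.32 with 3 probes between -0.38 and -0.26. All 7 were thus lower in granulocytes, by amounts that ran from -3.13 to -0.32, while the 7 proteins sit together in 1 ring. A list of 20 S-phase genes had a median difference of -3.07 between the same arrays, and their part in these values was not tested. Snrpn, a close relative of Snrpb that most tissues outside brain and heart express little, was not well above background in granulocytes (level -4.89) and stood at -4.56 in monocytes. Its difference is therefore known as a bound (at least 1.25-fold lower), and its probe lists 2 genes.

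Proteins specific to the U1 and U2 particles did not share a direction. Snrpa, the A protein of U1 that binds a stem loop of U1 RNA, stood at 1.89 and 4.18 (difference -2.29, 4 probes from -2.54 to -1.82). Snrpc, the C protein of U1 that steadies the pairing of U1 RNA with the start of an intron, was higher in granulocytes at 4.28 and 3.61 (difference 0.67), and -0.20 without scaling. Snrnp70, the U1 subunit contacted by SR proteins, stood at 5.29 and 5.24 (difference 0.05, other probe 0.61). For U2, Snrpa1 stood at 0.31 and 2.76 (difference -2.44), and Snrpb2, its binding partner, at 3.87 and 5.09 (difference -1.21, other probe -0.51). Snrnp70 and Snrpb2 are named to complete their particles, after their values were seen.

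The LSm proteins are the relatives of the Sm proteins that form a ring on U6 RNA (LSm2 to LSm8) and, with LSm1 in place of LSm8, a cytoplasmic ring that aids the decay of mRNA. Of the 7 genes of the U6 ring, 3 (42.9%, beside 20.9% of all genes) were at least 2-fold lower and the median was -0.90. Lsm7 stood at 1.25 in granulocytes and 4.16 in monocytes (difference -2.91, 1 probe). Lsm2 stood at -2.60 and -0.46 (difference -2.14), and Lsm5 at 2.15 and 3.34 (difference -1.19). Lsm4 was within 2-fold at 3.92 and 4.82 (difference -0.90).

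The subunits that tell the nuclear from the cytoplasmic ring differed little between the arrays. Lsm8, the nuclear one, stood at 3.01 and 2.73 (difference 0.29), and Lsm1, the cytoplasmic one, at 2.50 and 2.46 (difference 0.04). Both are named to complete the rings, as are Lsm3 (2.65 and 3.05, difference -0.40) and Lsm6 (2.84 and 3.55, difference -0.71), whose 4 probes ran from -1.44 to -0.71.

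LSm10 and LSm11 replace SmD1 and SmD2 in the ring of U7 RNA, which processes the ends of histone mRNA made in S phase, and the 2 genes lay on opposite sides of zero. Lsm11 stood at -2.69 in granulocytes and -0.03 in monocytes (difference -2.66). Lsm10 stood at 5.16 and 3.97 (difference 1.20), at least 2-fold higher in granulocytes here and 0.33 without scaling. Lsm14a, whose protein belongs to cytoplasmic mRNA storage granules and is no ring subunit, differed by 0.58. The plot of every probe by complex shows these subunits beside those of SF3 and U2AF.

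**Figure D3:**
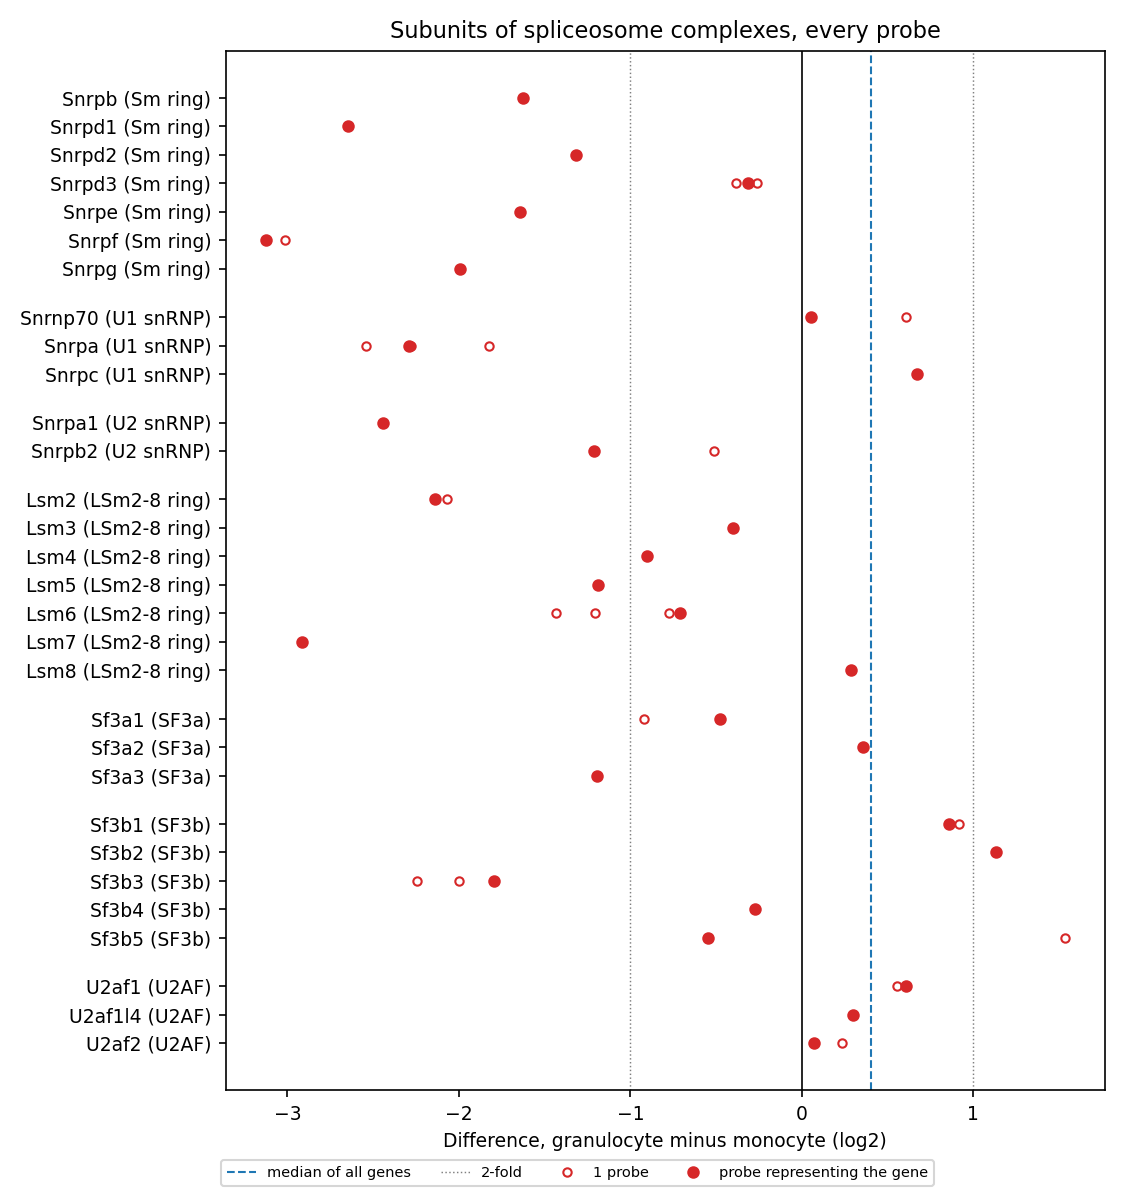
Difference between granulocytes and monocytes (log2, horizontal axis) for each probe of the subunits of 7 complexes (rows), with open circles for single probes, a filled circle for the probe that represents the gene, dotted lines at 2-fold and the median of all genes dashed. Within the Sm ring all 7 genes lie left of 0, whereas the U1 snRNP holds Snrpa at -2.29 beside Snrpc at 0.67, and SF3b holds Sf3b3 at -1.80 beside Sf3b2 at 1.13.

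SF3a and SF3b are the parts of the U2 particle that grip the branch point of an intron. Sf3b3, a large scaffold subunit, stood at 0.24 in granulocytes and 2.03 in monocytes (difference -1.80, 3 probes from -2.24 to -1.80), and Sf3a3 at 3.26 and 4.46 (difference -1.20). Sf3b2 went the other way, at 6.01 and 4.87 (difference 1.13, and 0.26 without scaling). Sf3b1, the subunit that clasps the branch point, stood at 2.39 and 1.53, a difference of 0.86 with 0.92 by its other probe and -0.01 without scaling.

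The remaining SF3 genes lay within 2-fold. Sf3a1 stood at 1.63 and 2.11 (difference -0.48, other probe -0.92) and Sf3b4 at 1.22 and 1.49 (difference -0.27). Sf3b5, the smallest SF3b subunit, cannot be given a direction: the probe that represents it, which starts at base 333 of its listed transcript, read 2.82 and 3.36 (difference -0.55), while a probe starting at base 3110 read -3.65 and -5.18 (difference 1.53).

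U2AF recognises the end of the intron, its large subunit (U2af2) binding the pyrimidine tract and its small subunit (U2af1) the final bases. U2af1 stood at 3.58 in granulocytes and 2.97 in monocytes (difference 0.61, other probe 0.56). U2af2 stood at -1.86 and -1.93 (difference 0.07), and U2af1l4, a relative of the small subunit, at 1.19 and 0.89 (difference 0.30). None of the 3 reached 2-fold, and all 3 turned negative without scaling.

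The PRPF genes, named after yeast genes for pre-mRNA processing, encode proteins of the U4/U6 and U5 particles and of the catalytic core. Prpf19, the ubiquitin ligase at the centre of the complex that activates the spliceosome, stood at -0.99 in granulocytes and 1.14 in monocytes (difference -2.14). Prpf31, which links U4/U6 to U5, stood at 2.89 and 4.19 (difference -1.30, other probe -1.69). Prpf8, the core protein that holds the catalytic RNA, was level on both arrays at 2.69 and 2.66 (difference 0.03, other probe -0.09).

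On the higher side, Prpf18, which acts in the second step of splicing, stood at 3.73 and 2.65 (difference 1.08, 3 probes from 1.06 to 1.11, and 0.20 without scaling). Prpf6, a bridge between U5 and U4/U6, stood at 4.23 and 3.50 (difference 0.73). Prpf39, a U1-associated protein in yeast, read 1.68 and 0.92 (difference 0.76). Its other probe above background on both arrays gave 0.02, and another, well above background in granulocytes alone, read -4.77 and -7.82, so that the mean over its probes was 1.28. Prpf40b (difference -0.97), Prpf3 (-0.73) and the kinase gene Prpf4b (-0.68) lay below 0 and within 2-fold.

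The 16 SR genes were grouped by the name prefix Sfrs or Srsf and include SR-related genes such as Sfswap, Clasrp and Srek1. Of the 16, 4 (25%, beside 20.9% of all genes) were at least 2-fold lower in granulocytes and 12 lay within 2-fold. The number lower was 11 without scaling, 9 on the spike-in controls and 7 after quantile normalisation. In those settings the share of all genes rose too, to 35.3%, 28.4% and 23.9%. Srsf7 stood at 3.74 in granulocytes and 5.09 in monocytes (difference -1.34, 3 probes from -1.46 to -1.34). Tra2b, an SR-like activator of exons rich in GAA repeats (Sfrs10 on the array), stood at 2.71 and 4.02 (difference -1.31), though its other probe gave -0.21. Srek1 (Sfrs12 on the array), a regulatory SR-related protein, stood at -1.44 and -0.16 (difference -1.28, 4 probes from -2.13 to -1.07).

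Srsf3, the smallest SR protein, which also aids mRNA export, read -2.85 and -1.08 by the probe that represents it, a difference of -1.77. Its other probe, also dim, read -3.07 and -3.39, a difference of 0.32. These probes disagree by more than 4-fold, so the gene's call rests on the choice of probe. Of the SR genes fixed by name, Srsf1 stood at 3.58 and 4.21 (difference -0.63, other probe -0.45) and Srsf2 at 4.25 and 4.53 (difference -0.28, lowest of 4 probes -0.74). Srsf1 is the founding SR protein and Srsf2 the nuclear one that is mutated in human myeloid disease.

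Among SR and SR-related genes higher in granulocytes, 0 reached 2-fold. Sfswap, a regulator of the splicing of its own RNA (Sfrs8 on the array), stood at 4.22 and 3.31 (difference 0.91). Of its 4 probes, 3 lay between 0.65 and 0.91 and the other at -0.55. Srsf5 stood at 4.39 and 3.74 (difference 0.65), and Clasrp, a partner of the SR kinase Clk4 (Sfrs16 on the array), at 5.16 and 4.58 (difference 0.58). Srsf9, an SR protein with a short RS domain, differed by -0.80.

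Of the 19 hnRNP genes 4 (21.1%, beside 20.9% of all genes) were at least 2-fold lower in granulocytes, 0 were higher by that much and 15 lay between. The number lower was 12 without scaling and 6 on the spike-in controls or after quantile normalisation. The share of all genes was 35.3% without scaling, 28.4% on the spike-in controls and 23.9% after quantile normalisation. Hnrnpa1, the splicing silencer of the A/B group, stood at 1.96 in granulocytes and 4.78 in monocytes (difference -2.82), and its 4 probes ran from -2.82 to -1.83. The representing probe lists 2 genes, and the 2 probes that list Hnrnpa1 alone gave -2.21 and -1.83. Without probes that list several genes, a setting added after the data were seen, 9 in place of 10 members were at least 4-fold lower. This gene has near-identical copies in the genome, so its level is uncertain.

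Hnrnpab, Hnrnpa3 and Hnrnpr were the other 3 lower by at least 2-fold. Hnrnpab stood at 6.03 and 7.20 (difference -1.17, lowest probe -1.74), Hnrnpa3 at 6.04 and 7.12 (difference -1.08, lowest of 4 probes -1.39), and Hnrnpr, a relative of the mRNA-binding protein Syncrip, at 1.69 and 3.07 (difference -1.38). Hnrnpa2b1 stood at 4.52 and 5.41 (difference -0.89), with 0.25 by its other probe.

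The hnRNP genes named above 0 were each within 2-fold. Hnrnpul1 stood at 4.55 and 3.78 (difference 0.77), Hnrnph2 at 5.33 and 4.58 (0.76), and Hnrnph3 differed by 0.49. Hnrnpl, which binds CA repeats, stood at 3.06 and 2.77 (difference 0.30), and its relative Hnrnpll, known for switching the Ptprc (CD45) isoform in lymphocytes, at 2.36 and 2.14 (difference 0.22, probes from -0.22 to 0.77). Without scaling Hnrnpl stood at -0.57.

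The RBM genes share a naming scheme rather than a function. Rbm19 had the lowest difference of all members, at -2.33 in granulocytes and 1.47 in monocytes (difference -3.80, 13.9-fold, 1 probe). Mak16 (Rbm13 on the array) stood at -1.11 and 0.86 (difference -1.97, other probe -2.04). These 2 proteins are known for making ribosomal subunits in the nucleolus, not for splicing. So are Rbm28 (difference -0.84) and Rbm34 (-0.69), which are named here after their values were seen.

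Rbm14, a coactivator found in paraspeckles, stood at 2.94 and 4.01 (difference -1.08). Rbm3, the cold-inducible RNA-binding protein, stood at 4.86 and 5.86 (difference -1.01, other probe -1.52). Rbm15, which guides methylation of adenosine in RNA and is needed in blood stem cells, stood at 0.46 and 1.44 (difference -0.98).

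The RBM family held 4 of the 7 members that were higher in granulocytes by 2-fold or more, beside Lsm10, Sf3b2 and Prpf18. Those 4 were 13.3% of the 30 RBM genes, a smaller share than the 29.1% of all genes. Rbm38, a p53 target that binds AU-rich mRNA and regulates splicing late in red cell development, stood at 1.59 in granulocytes and -0.23 in monocytes (difference 1.82, 3.54-fold). Rbm5, which regulates the splicing of apoptosis genes, stood at 6.23 and 4.96 (difference 1.27, other probe 0.91). Rbm18 stood at 3.16 and 1.87 (difference 1.29, 3 probes from 1.04 to 1.29).

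Esrp2 (Rbm35b on the array), an epithelial splicing regulator, read -3.02 and -4.28 (difference 1.26). Rbm39, a relative of U2af2, stood at 4.77 and 4.27 (difference 0.50, probes from 0.05 to 0.54), and Rbm43 at 0.48 and -0.46 (difference 0.95). The count of 7 higher members was 0 without scaling, 1 on the spike-in controls and 2 after quantile normalisation. In those settings 9.88%, 15.3% and 21.5% of all genes were at least 2-fold higher.

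The 50 members outside the naming rule ran from -1.65 to 0.85. Of these, 3 differed by 2-fold or more, all of them snRNP or Sm genes named to complete their complexes (Snrpe, Snrpd2 and Snrpb2). The unnamed RBM genes (19) ran from -0.84 to 0.85, the hnRNP genes (9) from -0.83 to 0.38, the LSm genes (6) from -0.79 to 0.29, the SR genes (6) from -0.66 to 0.02 and the PRPF genes (4) from -0.68 to 0.14. The remaining SF3 gene, Sf3a2, differed by 0.36.

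Other genes of the splicing pathway, from lists that leave out the members, spread in both directions. Of 50 other core spliceosome genes, 5 (10%) were at least 2-fold lower and 5 (10%) higher in granulocytes (median 0.05). Over all genes these shares were 20.9% and 29.1%. Ppie, a prolyl isomerase of the active spliceosome, differed by -3.26 (levels -2.78 and 0.48), and Ppil1, of the same enzyme class, by -1.86. Txnl4b, a relative of a U5 protein, differed by 2.69 (levels 4.55 and 1.86) and Zrsr1, a relative of U2af1, by 2.51.

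The SMN complex and its partners load Sm proteins onto small nuclear RNAs. Of their 16 genes, 10 (62.5%, beside 20.9% of all genes) were at least 2-fold lower and 1 (6.25%, beside 29.1%) higher (median -1.33). Gemin6, a subunit of the complex, stood at -4.18 and -0.63 (difference -3.55). Its granulocyte level lies near the lowest level well above background on that array (-5.16). Prmt5, which methylates Sm proteins before assembly, stood at -2.00 and 1.20 (difference -3.20), and Coil, the scaffold of Cajal bodies, differed by -2.21. Wdr77, the partner of Prmt5, was higher in granulocytes, at 2.53 and 0.50 (difference 2.03). The other 5 lay within 2-fold, among them Smn1 (-0.07), Gemin5 (-0.24) and Gemin7 (0.64), which are named after their values were seen.

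Among 15 genes of the exon junction complex and of SR-related coactivators, 2 (13.3%) were at least 2-fold lower and 3 (20%) higher (median 0.42). Over all genes these shares were 20.9% and 29.1%. The complex marks spliced mRNA, and its core gene Magohb differed by -2.49 and Casc3 by 1.38. Magoh, on the same list and brighter than Magohb on both arrays, differed by 0.14 and is named after its value was seen. Alyref, an mRNA export adaptor, differed by -1.65, and Pnisr, an SR-related protein, by 1.28. Of 10 kinases that phosphorylate SR proteins or are related to those, 1 (10%) was lower and 3 (30%) higher (median 0.71). Their higher share lies close to the 29.1% of all genes and is no result about them. Dyrk3 differed by -4.55, Srpk2 by 2.78, Srpk3 by 1.53 and Clk1 by 1.17.

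Other splice regulators that bind RNA had a median of -0.28. Of these 32, 9 (28.1%, beside 20.9% of all genes) were at least 2-fold lower and 4 (12.5%, beside 29.1%) higher. Ptbp1, which represses exons next to pyrimidine tracts, differed by -1.64, and Syncrip by -1.62. Ptbp3, the relative of Ptbp1 that is most used in blood cells, differed by 1.77 (levels 5.56 and 3.79).

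Genes of S phase moved with the same contrast. Of 20 S-phase and DNA replication genes, 19 (95%, beside 20.9% of all genes) were at least 2-fold lower in granulocytes and 0 higher. Their median was -3.07 and their range -4.17 to -0.98. Their summed signal, before scaling, was 16996 in granulocytes and 222650 in monocytes. Of 10 stem and progenitor markers, 7 (70%) were at least 2-fold lower and 2 (20%, beside 29.1% of all genes) higher. Their median was -3.09, with summed signals of 18089 and 240880. Mpo and Ctsg (differences -2.99 and -3.40) were the brightest of the 10 on both arrays, so the sums weigh these 2 genes most. Kit and Gata2 were the 2 higher ones (1.35 and 1.76), and Myb differed by 0.41. These genes are named after their values were seen. The part of S-phase and progenitor genes in the lower levels of the Sm, LSm and other member genes was not tested.

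Markers of other cells were also read. Of 9 T and NK cell markers above background (Ncr1 was not), 6 (66.7%) were at least 2-fold lower and 1 (11.1%) higher. Over all genes these shares were 20.9% and 29.1%. Summed signals were 1801.5 in granulocytes and 3591.6 in monocytes. Of 10 B-lineage markers 5 (50%) were higher and 0 lower (17501 and 35929). Among 7 erythroid markers 6 (85.7%) were higher and 0 lower (43988 and 21539). The counts use scaled differences while the sums are of signal before scaling, so for the B-lineage markers they point opposite ways, and the shift of -0.87 that the scaling takes out is part of each gap between sums. Ahsp and Hbb-b1, also on the erythroid list, had 0 probes under those names and were not analysed here. The part of such cells in the members' differences was not tested.

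**Figure D4:**
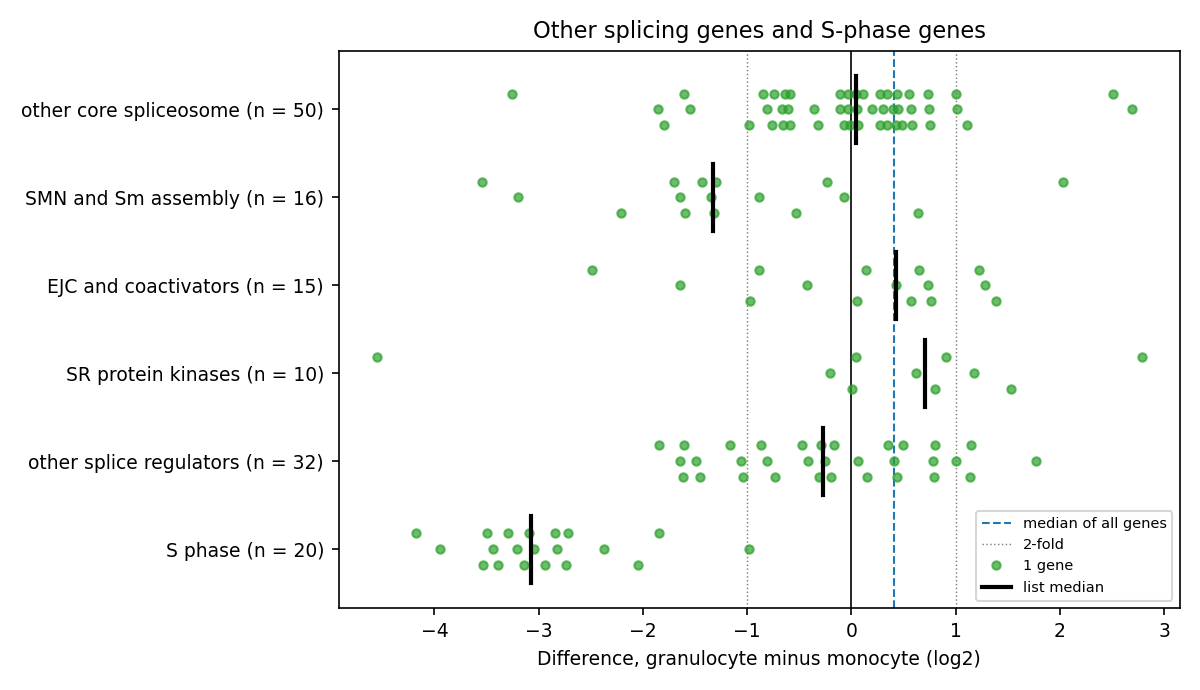
Difference between granulocytes and monocytes (log2, horizontal axis) for genes of 5 splicing-related lists without the members and for S-phase genes, 1 point per gene, with the list median as a black bar, the median of all genes dashed and 2-fold dotted. The SMN and Sm assembly genes (median -1.33) and the S-phase genes (median -3.07) lie to the left, and the SR protein kinases have a median of 0.71.

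Several probes measured 64 of the members on both arrays, which gives a check within the arrays that the design does not give between them. The median SD between probes of a member was 0.20, beside 0.23 over 5398 genes. Of the 64, 9 had probes that differed by over 2-fold, 2 (Srsf3 and Sf3b5) by over 4-fold, and in 0 was 1 probe at least 2-fold lower while another was at least 2-fold higher. In 9 the probes fell on both sides of zero: Hnrnpa2b1, Hnrnpk, Hnrnpll, Prpf8, Rbm4, Rbm4b, Sf3b5, Sfswap and Srsf3. Probes of a transcript that lay at least 500 bases apart were also compared. The difference of the 3′ probe minus that of the 5′ probe had a median of 0.09 over 34 transcripts of members. Over all 3038 such transcripts the median was 0.08.

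Promoters were read from RefSeq for the mouse assembly GRCm38.p6, as 300 bases around each start site, and 96 of the 115 members matched. The letters CACGTG (the E-box), CCGGAAGT (an ETS-type site) and the palindromic NRF1 motif were searched on both strands, and none of the 3 contains another. CACGTG was found in 13 members (13.5%), beside 10.7% of 12389 genes above background and 8.09% of all 27025 genes with a promoter. CCGGAAGT was found in 14 members (14.6%), beside 7.61% and 4.31%, and the NRF1 motif in 2 (2.08%), beside 1.88% and 1.07%. Of the 25 members at least 2-fold lower in granulocytes that had a promoter, 3 held CACGTG and 4 held CCGGAAGT, and of the 71 others 10 held each, which is 12% and 16% against 14.1% and 14.1%. No binding was measured here, and a match is a description of letters only. Stretches that end before the start site are shown for Rbm19 (chr5:120116433-120116512, plus strand), Snrpa (chr7:27195788-27195865, minus strand) and Sf3a3 (chr4:124714734-124714813, plus strand), as lower members with a match, capitals marking the matches (ACTTCCGG is CCGGAAGT on the other strand).
Rbm19: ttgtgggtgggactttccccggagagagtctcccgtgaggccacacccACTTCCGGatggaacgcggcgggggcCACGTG
Snrpa: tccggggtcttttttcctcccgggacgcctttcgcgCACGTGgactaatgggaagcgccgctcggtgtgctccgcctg
Sf3a3: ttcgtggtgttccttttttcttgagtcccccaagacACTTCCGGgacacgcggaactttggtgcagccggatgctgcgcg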

How the data were processed

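Total RNA of granulocytes and monocytes was measured on 1 one-colour array each, both from 1 slide and 1 scan. Per the file headers, Agilent Feature Extraction 10.5.1.1 gave each spot a background-subtracted intensity on a linear scale, with no normalisation between arrays. The authors' deposited value table was log2, namely the log2 signal shifted by -0.24 on the granulocyte and -0.92 on the monocyte array (99.8% and 99.9% of probes within 0.01), and the sources used here do not say how these shifts were set. Its column medians were 4.80 and 4.80.

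Of 43379 gene spots per array, outlier spots (143 and 103) were left out, and 0 were saturated. The value was log2 of the processed signal minus its 75th percentile (339.4 and 620.9), averaged over the spots of a probe. The median SD of repeated spots was 0.11 and 0.09. Probes were named through RefSeq accessions (24085 probes), current symbols (6234) or older symbols (2386) of GRCm38.p6, with 8058 left unnamed, and 411 listed several genes. A gene was represented by its probe above background on most arrays, then the brightest. A gene dim on 1 array has a bound, taken against the higher of the dim probe's own level and the lowest level well above background (-5.16 and -6.04).

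Differences were counted at 2-fold and 4-fold, with no test. The steps were tested on simulated data with Python 3.11.15, and limma 3.58.1 made the normexp alternative (offset 50). The members and lists were chosen with earlier results of these data known. By rule, the text names per family the 5 members farthest each way from the all-gene median, members at least 4-fold different, members at least 2-fold different against their family median, members with disagreeing probes, a fixed set, and up to 4 genes per other list. Probe sequences were planned only for members whose probes disagree and only where checked against protein sequences. Promoters were planned only as counts of matches. Protein sequences were not used here, so coding probes were taken by their open reading frame. The genes shown have no disagreeing probes, and the promoter stretches were not planned. All stretches shown were chosen afterwards. Some results that the rule selects are not reported here.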

Additional observations from a re-analysis of the deposited data

How the results depend on the processing

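Scaling between the arrays changed how many members passed a fold, as it did for all genes. Without scaling the members' median was -1.15 (all genes -0.42), with 65 members (56.5%, all genes 35.3%) at least 2-fold lower, 0 (all genes 9.88%) at least 2-fold higher and 26 (22.6%, all genes 19.3%) at least 4-fold lower in granulocytes. With the spike-in controls as the reference the median was -0.78 (all genes -0.05), and these counts were 48 (41.7%, all genes 28.4%), 1 (0.87%, all genes 15.3%) and 16 (13.9%, all genes 15.0%). After quantile normalisation the median was -0.72 (all genes 0.18) and 2 members (1.74%, all genes 21.5%) were at least 2-fold higher. With the scaling used in the Results, leaving out the RBM genes left 3 of 85 members (3.53%, all genes 29.1%) at least 2-fold higher. Scaling by probes above background on both arrays, normexp, the authors' table, other filters on dim probes and other rules for several probes kept each count within 1.5 times. Srsf3, lower by the probe that represents it, was 0.32 by its dimmest probe. Of the 32 named members under 2-fold, 21 changed sign in at least 1 alternative. For 16 of them scaling alone did this, by moving zero for all genes, and for 5 (Hnrnpa2b1, Prpf40b, Prpf8, Sf3b5 and Sfswap) a choice of probe or background did. No paired analysis was possible because each cell type had 1 array. Differences of dim members, such as Esrp2 and Prpf40b, lie near the background and are limited by it.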
